A study of Homo sapiens with 12 samples.

Results

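The genes that sense, make or break down lysophosphatidic acid (LPA) were followed through 12 RNA sequencing libraries of the human ovarian cancer lines CAOV3 and TOV21G. The members were 9 genes listed by name for their role: the receptors LPAR1, LPAR2, LPAR3, LPAR5 and LPAR6, the LPA-producing enzyme ENPP2, and the phosphatases PLPP1, PLPP2 and PLPP3. Of these 9, 7 had values among the 19251 genes of the count files, and all 7 passed the filter on low values that left 17616 genes for testing. LPAR3 and ENPP2 were not analysed here. The members and the other lists below were chosen with earlier results of these data known.

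LPA is a small signalling lipid that accumulates in the ascites of ovarian cancer, the fluid that gathers in the abdomen. Outside the cell it is produced mainly by autotaxin, the product of ENPP2, from lysophosphatidylcholine. It acts through G-protein-coupled receptors, of which LPAR1, LPAR2 and LPAR3 belong to the EDG family while LPAR5 and LPAR6 are related to the P2Y purine receptors. The lipid phosphate phosphatases PLPP1, PLPP2 and PLPP3 are membrane proteins that remove its phosphate and so end its action at those receptors.

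The study asked which transcripts change when ovarian cancer cells meet ascites. CAOV3 is described in the labels as an epithelial line of high grade serous type and TOV21G as one of clear cell type, both with a WT genotype. Each line was grown in medium with 10% serum, and each gave 3 control libraries without ascites and 3 libraries after 16 h with 10% ascites, made by adding 150 µL to 1.5 mL of medium. The labels name no addition to the control wells, do not say how many donors the ascites came from, and do not say whether the libraries of a group came from separate cultures, so the p-values measure the spread between these libraries only.

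The libraries held 26697609 to 34491304 reads each. Keratins KRT7, KRT8, KRT18 and KRT19 and other epithelial markers had reads in all libraries. All 7 epithelial markers summed to 156820 to 191760 normalised counts in CAOV3 and to 10723 to 12783 in TOV21G. The TOV21G sum was mainly KRT8 and KRT18, with control means of 5287.5 and 5738.3. The epithelial markers CDH1 and CLDN4 were low there, with control means of 13.3 and 30.1, against 424.7 and 3852.7 in CAOV3. The serous label of CAOV3 was not matched by its markers: PAX8 was 18.2 to 25.6 and WT1 2.15 to 8.18 there, against PAX8 of 6797 to 9342 in TOV21G. The 2 listed clear cell genes reported here did not decide the clear cell label of TOV21G. ARID1A, a chromatin remodeller that most cell types express, was 1529 to 2179 in TOV21G and 5217 to 5828 in CAOV3. NAPSA was low in both lines, at 3.54 to 11.9 in TOV21G and 2.04 to 4.30 in CAOV3. Of 10 leukocyte markers 4 had values, summing to 175 to 233 in CAOV3 and 46.1 to 68.9 in TOV21G, and LYZ was 0 in every TOV21G library. Of the other cell types ascites could carry, 5 of 6 mesothelial markers had values (98.2 to 159 summed in CAOV3, 601 to 682 in TOV21G), as did 1 of 4 endothelial markers (0 to 11.3 over all libraries) and 1 of 7 platelet and erythroid markers (19.4 to 69.2). Fibroblast markers had higher sums, with 6 of 7 having values, at 5328 to 6419 in CAOV3 and 11261 to 13084 in TOV21G. In both lines the sums of the ascites libraries lay below those of the controls. The sums rested on few genes. In CAOV3 the mean of LUM was 4196 in controls and 3647 with ascites. COL3A1 (424.0 and 424.1) and PDGFRA (1005.5 and 1062.5) were not lower there. In TOV21G the sum was mainly COL1A2 (10854 in controls), with COL3A1 at 0 in every library and PDGFRA at most 2.17. The part of this in the results was not tested. The nuclear RNAs MALAT1, NEAT1 and KCNQ1OT1 summed to 24195 to 27764 in CAOV3 but to 17229 to 76242 in TOV21G, where ascites replicate 3 stood apart at the top. Since these were bulk libraries, fewer cells of a type and less RNA per cell cannot be told apart.

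No LPA receptor or phosphatase passed the test for a change with ascites in either line, where 1.73% of all tested genes in CAOV3 and 0.409% in TOV21G did. The untreated lines differed at 6 of the 7 genes, a share near the 82.2% of all tested genes that differed between them. In untreated cells LPAR1 and PLPP2 were 7.07-fold and 8.27-fold higher in TOV21G than in CAOV3. PLPP3 was 11.3-fold and LPAR5 2.73-fold higher in CAOV3, and LPAR6 was at least 258-fold higher in CAOV3, where TOV21G gave no read. LPAR2 was the 1 member that the lines held at nearly the same level. The values are the authors' normalised read counts, that is reads divided by a size factor per library, given as mean ± SD with n = 3 libraries. Differences are on the scale of log2(normalised count + 1) from limma with all 12 libraries in 1 fit, and a gene was called at a Benjamini-Hochberg adjusted p under 0.05 over all tested genes.

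**Figure D1:**
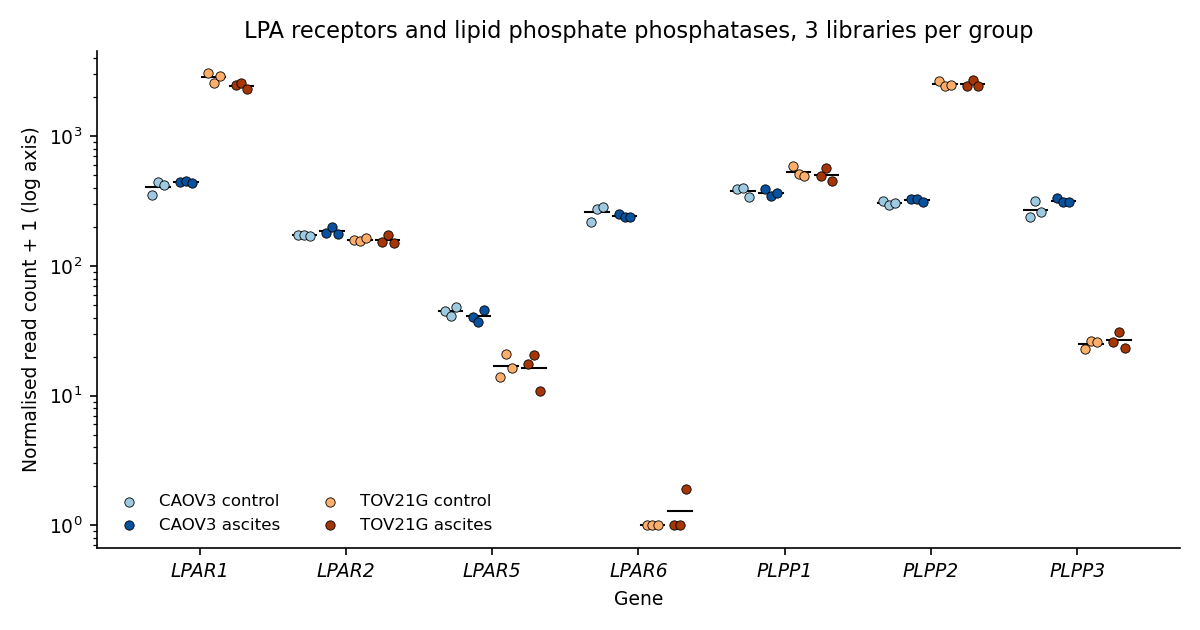
Normalised read count plus 1 (log axis) of the 7 genes in each of the 12 libraries; points are libraries, bars are means of 3, and colours are the 4 groups. For LPAR1, LPAR6, PLPP2 and PLPP3 the lines are far apart, while control and ascites libraries of a line lie close together for every gene.

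Sequence upstream of the start is shown for LPAR1 and LPAR6, the receptors that stood furthest above the other line in TOV21G and CAOV3. RefSeq (GRCh38.p14) gave start sites for 7 of the 9 members, and in 2 of these the 250 bases before the start held no annotated exon of GENCODE release 29; these are printed 5′ to 3′ on the minus strand, which both genes use. The LPAR1 window is chr9:111038999-111039248 and the LPAR6 window is chr13:48413114-48413363, the latter inside the span GENCODE gives for LPAR6 but in none of its exons. Capitals mark matches on either strand to any of 3 motifs. The GC box, bound by Sp1 proteins, was searched as GGGCGG. The core promoter element that positions the polymerase was searched as TATAAA. The AP-1 site, bound by Fos and Jun proteins, was searched as TGANTCA. The motifs do not overlap in these windows.
LPAR1: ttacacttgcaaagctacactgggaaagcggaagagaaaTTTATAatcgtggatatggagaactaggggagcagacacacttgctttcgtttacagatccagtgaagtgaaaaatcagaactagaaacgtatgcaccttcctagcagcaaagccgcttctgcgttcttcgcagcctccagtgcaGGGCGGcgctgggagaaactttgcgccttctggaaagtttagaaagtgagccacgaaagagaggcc
LPAR6: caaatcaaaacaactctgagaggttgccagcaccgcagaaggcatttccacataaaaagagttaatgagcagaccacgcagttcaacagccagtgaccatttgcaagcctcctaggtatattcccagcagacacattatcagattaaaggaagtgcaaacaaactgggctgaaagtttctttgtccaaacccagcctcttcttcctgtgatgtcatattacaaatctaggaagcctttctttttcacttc
The LPAR1 window held 1 GC box, which 42.6% of 35116 promoter windows of the same length also hold. It held 1 match to the letters TATAAA, which 10.7% hold. That match was on the opposite strand, printed as TTTATA, and lay toward the window's end furthest from the start. It had 11 CpG dinucleotides, equal to the median of those windows. The LPAR6 window held 2 CpG dinucleotides, and 14.7% of windows held fewer. It had no match to any of the 3 motifs, and the LPAR1 window had none to the AP-1 letters, which 6.57% of windows hold. These matches are descriptions of the letters and not measured binding.

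LPAR1, the receptor that couples to Gi, Gq and G12/13 proteins, spans chr9:110873263-111038458 on the minus strand (GENCODE release 29, GRCh38). Its normalised counts in the CAOV3 controls were 350.7, 445.3 and 417.6, and 445.2, 454.0 and 438.9 after ascites. The TOV21G controls held 3058, 2594 and 2933, and the TOV21G ascites libraries 2464, 2562 and 2311. Every TOV21G library lay above every CAOV3 library, and within CAOV3 the control and ascites libraries overlapped, with 1 control low. Within TOV21G the 3 ascites libraries all lay below the 3 controls. The difference between untreated lines was 2.82 log2 (SE 0.082, limma adjusted p = 9.4e-13).

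With ascites, LPAR1 differed by 0.15 log2 in CAOV3 (95% interval -0.03 to 0.32, adjusted p = 0.489) and by -0.22 log2 in TOV21G (95% interval -0.40 to -0.05, unadjusted p = 0.0169, adjusted p = 0.427). The interaction, TOV21G response minus CAOV3 response, was -0.37 log2 (SE 0.12, unadjusted p = 0.00686, adjusted p = 0.248). None of these 3 passed the threshold. In CAOV3 the value rested on the low control: without control replicate 1 it was 0.05 log2. Giving each library a weight by its quality called both the TOV21G difference (adjusted p = 0.0198) and the interaction (adjusted p = 0.0192), in a setting that raised the calls over all genes in TOV21G from 72 to 3390.

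The 6 TOV21G libraries also varied in MALAT1, NEAT1 and KCNQ1OT1, RNAs that stay in the nucleus. MALAT1 stood at 14363, 36224 and 22591 in the TOV21G controls and at 37574, 21436 and 66860 after ascites; the CAOV3 libraries ran from 19062 to 22325. Within each TOV21G group, the library with the most MALAT1 had the least LPAR1 and the library with the least MALAT1 had the most LPAR1. With the log2 level of MALAT1 as a covariate, a setting added after the data were seen, the LPAR1 difference with ascites in TOV21G was -0.13 log2 (adjusted p = 0.811) and that between the responses -0.28 log2 (adjusted p = 0.345). Without ascites replicate 3 the LPAR1 difference in TOV21G was -0.18 log2 (adjusted p = 0.92), and without control replicate 2 it was -0.29 log2 (adjusted p = 0.154).

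**Figure D2:**
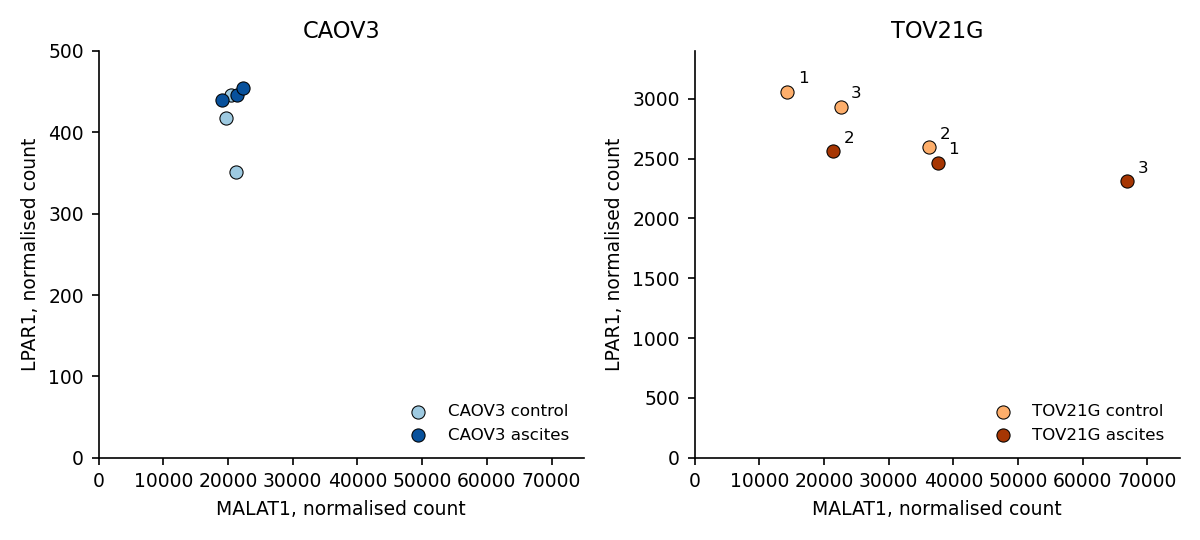
LPAR1 against MALAT1, both as normalised counts, for the CAOV3 libraries on the left and the TOV21G libraries on the right, where numbers are replicates; colours separate control and ascites. MALAT1 spans 14363 to 66860 in TOV21G and LPAR1 is lowest in ascites replicate 3, the library with the most MALAT1.

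LPAR2, a second EDG-family receptor, spans chr19:19623668-19628930 and overlaps no other annotated gene. The CAOV3 controls held 172.5, 172.1 and 169.2 normalised counts, and 178.3, 199.4 and 176.0 after ascites. The TOV21G controls held 158.3, 154.1 and 162.4, and the ascites libraries 153.2, 171.7 and 150.3. The 3 CAOV3 ascites libraries all lay just above the controls, the TOV21G groups overlapped, and the TOV21G controls all lay below the CAOV3 controls. None of these gaps was called: the differences were 0.10 log2 with ascites in CAOV3 (95% interval -0.09 to 0.30), 0.00 in TOV21G (-0.20 to 0.19) and -0.11 between untreated lines (-0.31 to 0.08, limma adjusted p = 0.254). Between the lines under ascites LPAR2 was lower in TOV21G (-0.22 log2, adjusted p = 0.0369), a call kept in 15 of 24 alternative settings and lost without CAOV3 ascites replicate 2 (adjusted p = 0.144), TOV21G ascites replicate 1 (0.0968) or TOV21G ascites replicate 3 (0.107). It was also lost in 6 alternatives that kept every library, among them edgeR (0.0705) and DESeq2 (0.102).

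LPAR5, a receptor for LPA that is related to P2Y receptors, spans chr12:6618835-6636447 and was the least abundant receptor in CAOV3. The CAOV3 controls held 44.3, 39.8 and 47.5 and the ascites libraries 39.4, 35.8 and 45.0. The TOV21G controls held 13.01, 19.92 and 15.25, and the ascites libraries 16.57, 19.47 and 9.84. Control and ascites libraries overlapped in both lines, and every TOV21G library lay below every CAOV3 library. The untreated lines differed by -1.41 log2 (SE 0.25, limma adjusted p = 0.000144). At these low counts the intervals for ascites were wide, from -0.67 to 0.41 log2 in CAOV3 and from -0.64 to 0.45 in TOV21G.

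LPAR6, a receptor known for its role in hair growth, spans chr13:48389567-48444704. It lies in the span of RB1, which runs on the opposite strand and shares no exon base with it. The CAOV3 controls held 219.0, 272.1 and 282.1 normalised counts of LPAR6 and the ascites libraries 251.6, 238.2 and 237.4. The TOV21G controls were all at 0, and of the TOV21G ascites libraries 2 were at 0 and 1 held a single read. In whole reads the CAOV3 controls together gave 731 against 0 of 87542479 in the TOV21G controls, at least 258-fold after scaling, with a floor of 3 counts over the group. Under ascites there were 695 reads against 1, a ratio of 837 with a counting interval of 150 to 33097. RB1 itself was higher in TOV21G, at 4499 ± 148 in controls against 1770 ± 81.4 in CAOV3. The cause of the absence of LPAR6 reads in TOV21G was not tested. With ascites, LPAR6 in CAOV3 differed by -0.08 log2 (95% interval -0.64 to 0.48).

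The receptor mix can be compared between genes only per length, here per kilobase of the longest coding transcript. LPAR1 made up 39.9 ± 1.70% of the summed receptor level per kilobase in CAOV3 controls and 92.1 ± 0.633% in TOV21G controls. LPAR6 held 30.8 ± 1.66% and LPAR2 24.3 ± 2.31% in CAOV3, so that 3 receptors shared most of the level there. In TOV21G LPAR2 was the only other sizeable receptor, at 7.30 ± 0.454%, and LPAR5 held 5.00 ± 0.655% in CAOV3 and 0.602 ± 0.182% in TOV21G. After ascites LPAR1 held 42.5 ± 0.116% in CAOV3 and 90.9 ± 0.342% in TOV21G. The summed receptor level per kilobase was 278 ± 23.5 and 288 ± 5.36 in CAOV3 control and ascites libraries, and 854 ± 66.1 and 740 ± 40.2 in TOV21G.

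**Figure D3:**
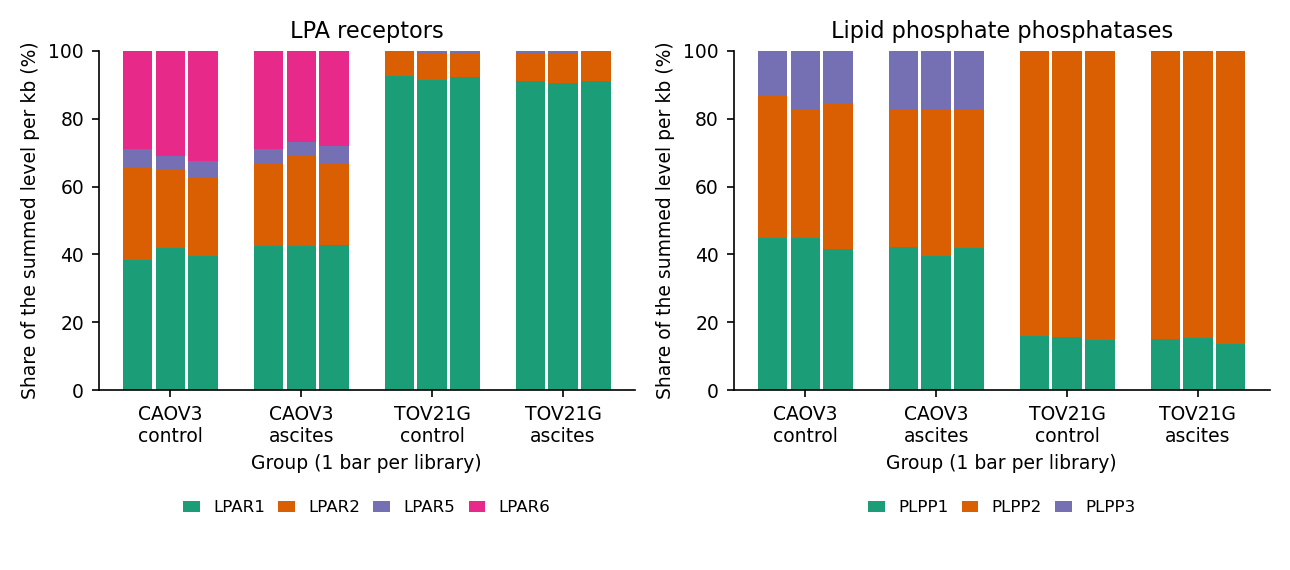
Share (%) of each gene in the summed level per kilobase of longest coding transcript, for 4 receptors on the left and 3 phosphatases on the right, with 1 stacked bar per library in the 4 groups. LPAR1 holds about 40% of the receptor level in CAOV3 and over 90% in TOV21G, and PLPP3 is visible in CAOV3 only.

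PLPP1, a phosphatase of the cell surface, spans chr5:55424854-55535050. The CAOV3 controls held 390.4, 399.1 and 338.5 and the ascites libraries 390.5, 344.6 and 364.2. The TOV21G controls held 584.2, 514.8 and 495.3, and the ascites libraries 495.3, 567.2 and 449.2. Control and ascites libraries overlapped in both lines, and every TOV21G library lay above every CAOV3 library. The untreated lines differed 1.41-fold, or 0.50 log2 (SE 0.097, limma adjusted p = 0.000317), and the differences with ascites were -0.04 log2 in CAOV3 (95% interval -0.25 to 0.17) and -0.08 in TOV21G (-0.29 to 0.13). PLPP1 shares 481 exon bases with MTREX on the other strand, a gene at 4674 ± 304 in untreated CAOV3 and 3311 ± 77.3 in untreated TOV21G. The strand setting of the counting was not given in the sources used here, so reads in that shared stretch cannot be assigned with certainty.

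PLPP2, the phosphatase that dominated in TOV21G, spans chr19:281040-291504 with no overlapping gene. The CAOV3 controls held 316.6, 295.8 and 306.8 and the ascites libraries 329.3, 328.2 and 309.0. The TOV21G controls held 2690, 2435 and 2476, and the ascites libraries 2440, 2741 and 2461. Control and ascites libraries overlapped in both lines, and the lines were far apart. The difference between untreated lines was 3.04 log2 (SE 0.058, limma adjusted p = 1.7e-14). The intervals with ascites were the narrowest among the members, from 0.964-fold to 1.15-fold in CAOV3 and from 0.921-fold to 1.10-fold in TOV21G.

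PLPP3, whose product controls LPA and sphingosine 1-phosphate outside the cell in vessels and other tissues, spans chr1:56494747-56645301. The CAOV3 controls held 239.5, 314.1 and 260.3 and the ascites libraries 331.5, 310.8 and 313.1. The TOV21G controls held 21.7, 25.2 and 25.1, and the ascites libraries 24.8, 30.1 and 22.4. The groups overlapped within each line, although in CAOV3 only control replicate 2 reached the ascites libraries. The difference with ascites in CAOV3 was 0.24 log2 (95% interval -0.08 to 0.56, adjusted p = 0.545), and in TOV21G 0.09 log2 (-0.22 to 0.41). Untreated TOV21G lay -3.44 log2 from CAOV3 (SE 0.15, limma adjusted p = 5e-11). PLPP3 shares 576 exon bases with AC119674.2 on its own strand, so part of its reads could be ambiguous in counting.

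Per kilobase of longest coding transcript, PLPP1 and PLPP2 shared the phosphatase level in CAOV3 controls, at 43.8 ± 1.96% and 40.9 ± 2.59%, with PLPP3 at 15.3 ± 1.88%. In TOV21G controls PLPP2 held 84.2 ± 0.514%, PLPP1 15.4 ± 0.548% and PLPP3 0.340 ± 0.0464%. These shares depend on the length chosen for PLPP2, whose longest coding transcript has 1397 bases and whose merged exons have 7059. With merged exons PLPP1 led in CAOV3 controls at 66.3% and PLPP2 still led in TOV21G controls at 57.3%.

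Ordered by level per kilobase of longest coding transcript in the CAOV3 controls, PLPP1 (235 ± 20.5) and PLPP2 (219 ± 7.46) came first and overlapped. LPAR1 followed at 111 ± 13.4, then LPAR6 (85.8 ± 11.3) and PLPP3 (82.4 ± 11.7), which overlapped, then LPAR2 (67.3 ± 0.700) and LPAR5 (13.8 ± 1.22). In the TOV21G controls the order was PLPP2 (1814 ± 98.1), LPAR1 (787 ± 66.0), PLPP1 (333 ± 29.3), LPAR2 (62.2 ± 1.63), PLPP3 (7.29 ± 0.607), LPAR5 (5.06 ± 1.11) and LPAR6 at 0, with no overlap between neighbours. Among 13627 tested genes with a coding transcript, LPAR1 per kilobase exceeded 36.2% in untreated CAOV3 and 80.5% in untreated TOV21G. PLPP2 exceeded 49.996% and 92.6%, and PLPP3 31.6% and 12.04%. With merged exons LPAR1 and not PLPP2 came first in the TOV21G controls, at 688 against 359. In the CAOV3 controls PLPP1 then came first alone at 186.5, and PLPP2 moved to rank 6 at 43.4.

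Ascites called 0 of the 7 members in CAOV3, where 1.73% of all tested genes were called, and 0 of 7 in TOV21G, where 0.409% were called. At an unadjusted p under 0.05 limma had 0 members in CAOV3 and 1, LPAR1, in TOV21G, against 12.9% and 9.17% of all tested genes. The edgeR quasi-likelihood test and DESeq2, run on recovered whole reads, also called 0 members in both lines. Control and ascites libraries failed to overlap for 1 of 7 members in CAOV3 (LPAR2) and 1 of 7 in TOV21G (LPAR1), where 24.2% and 11.1% of all tested genes did so. The median difference of the members was 0.07 log2 in CAOV3 and 0.00 in TOV21G, against 0.00 and -0.02 over all tested genes. The difference between the responses was called for 0 of 7 members and for 0.545% of all tested genes, with 1 member, LPAR1, at an unadjusted p under 0.05 against 11.9% of all.

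**Figure D4:**
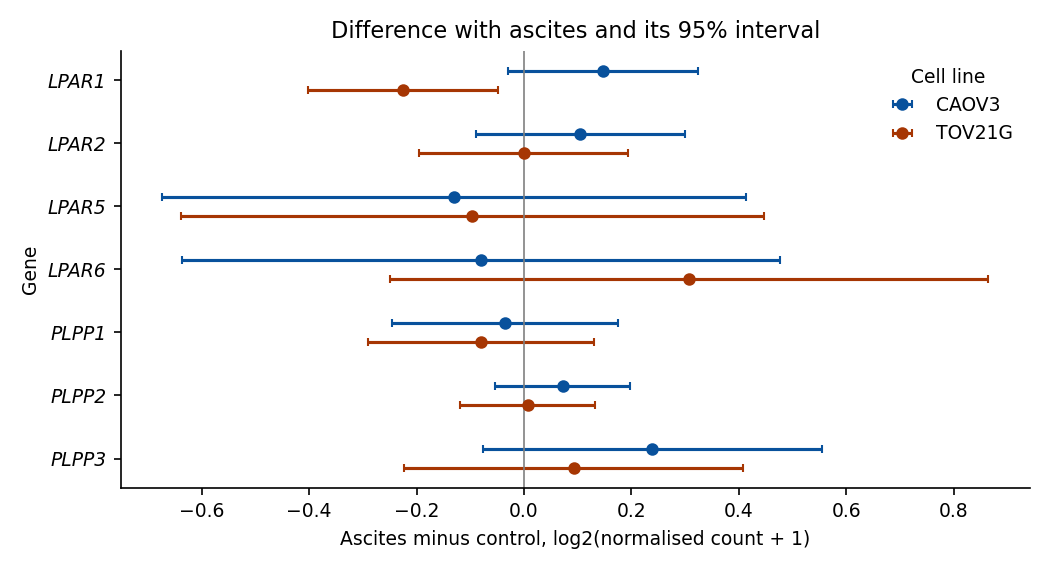
Ascites minus control on the scale of log2(normalised count + 1) for the 7 genes, with 95% intervals from limma, CAOV3 in blue and TOV21G in brown. All intervals cross 0 except that of LPAR1 in TOV21G, from -0.40 to -0.05, which did not pass the adjusted threshold.

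Between the untreated lines 6 of 7 members were called, 3 higher in TOV21G (LPAR1, PLPP1, PLPP2) and 3 lower (LPAR5, LPAR6, PLPP3). Of all tested genes 82.2% were called, 40.8% higher and 41.4% lower. The median absolute difference was 2.82 log2 over the members and 0.81 over all tested genes. The ascites libraries of the lines gave all 7 as called, 3 higher and 4 lower, where 82.7% of all tested genes were, 40.9% higher and 41.8% lower. Both line comparisons used the same fit and separate libraries.

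The genes whose log2 levels followed a member most closely over the 12 libraries were found by Pearson's r. They were WDR45B (0.999) and SUSD1 (0.9986) for LPAR1, HENMT1 and PDE8B (0.9997 each) for LPAR6, CLDN1 (0.9998) and MYC (0.9997) for PLPP2, and DDN (0.9988) and CCDC85B (0.9982) for PLPP3. For PLPP1 they were G6PC3 (0.988) and RNF26 (0.9863), and for LPAR5 ENSG00000228509 (0.981) and SPOP (0.9808). Such values mostly record the gap between the lines: 4444 tested genes had r of at least 0.95 with LPAR1 and 4535 with PLPP2. LPAR2, for which the gap between the lines was small, had 0 such genes, and its closest were DAD1 (0.932) and UBE2T (0.9286).

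Of a list of 8 other LPA receptors and LPA-forming enzymes, 4 had values and were tested. The other 4 were not analysed here. Among the tested genes limma called 0 with ascites in either line, against 1.73% of all tested genes in CAOV3 and 0.409% in TOV21G. At an unadjusted p under 0.05 it also had 0, against 12.9% and 9.17% of all. Between the untreated lines 3 were higher and 1 lower in TOV21G; for this and the lists that follow, the share called over all tested genes was 82.2%. The lower one was LIPH, a phospholipase that forms LPA from phosphatidic acid, at 132 ± 20.9 normalised counts in untreated CAOV3 and 0.699 ± 1.21 in untreated TOV21G (-6.50 log2, adjusted p = 1.2e-09). GDPD1, a lysophospholipase D, was 44.3 ± 6.72 and 62.9 ± 6.33 (0.50 log2, adjusted p = 0.0168).

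Enzymes that make LPA inside the cell or turn it into phosphatidic acid were tested for 10 of 11 genes. Ascites called 0 of them in either line, against 1.73% of all tested genes in CAOV3 and 0.409% in TOV21G. At an unadjusted p under 0.05 there were 2 in CAOV3 and 1 in TOV21G, against 12.9% and 9.17% of all. Between the untreated lines 5 were higher and 4 lower in TOV21G, all by less than 1 log2. AGPAT3, an acyltransferase that consumes LPA, was 1957 ± 49.9 in CAOV3 and 3862 ± 114 in TOV21G controls, and AGPAT4 458 ± 28.8 and 804 ± 44.7. AGPAT2 went the other way, at 2773 ± 142 and 1570 ± 107, as did AGK, the kinase that forms LPA from monoacylglycerol, at 2053 ± 50.8 and 1186 ± 145. All 4 had limma adjusted p-values of at most 6.5e-08.

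Of 10 other LPA phosphatases and phosphatase-related proteins 6 were tested. PLPPR2, a related membrane protein, was the 1 gene called with ascites, in TOV21G, where 0.409% of all tested genes were called. Its controls held 574.5, 558.8 and 594.9 and its ascites libraries 470.4, 469.0 and 425.1, with all ascites libraries below the controls, and it fell by 0.34 log2 (SE 0.059, limma adjusted p = 0.0261). The call was kept in 16 of 24 alternatives and was lost without TOV21G control replicate 1 (adjusted p = 0.0704) or 3 (0.127), without TOV21G ascites replicate 1 (0.0646) or 3 (0.0984) and without CAOV3 ascites replicate 3 (0.053). With MALAT1 as a covariate its adjusted p was 0.0688, and with TOV21G fitted alone 0.341. In CAOV3 its difference was -0.01 log2, and the difference between the responses was not called (adjusted p = 0.136). Between the untreated lines 1 of the 6 was higher and 5 lower in TOV21G, among them ACP6, the LPA phosphatase of mitochondria, at 1144 ± 40.5 in CAOV3 and 412 ± 23.5 in TOV21G (-1.47 log2, adjusted p = 3.7e-10). PLPPR3 was 72.0 ± 2.58 in CAOV3 controls and 0 in all 3 TOV21G controls, and PLPP6, which acts on polyisoprenoid phosphates, was 369 ± 22.0 and 269 ± 10.2.

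All 11 listed G proteins and phospholipases C that relay LPA receptor signals were tested. Ascites called 0 in either line, against 1.73% of all tested genes in CAOV3 and 0.409% in TOV21G. At an unadjusted p under 0.05 there were 0 in CAOV3 and 1 in TOV21G, against 12.9% and 9.17% of all. Between the untreated lines 7 were higher and 3 lower in TOV21G, where 40.8% and 41.4% of all tested genes were. Of the phospholipase C genes, PLCB2 was 32.8 ± 4.64 in CAOV3 and 1952 ± 89.8 in TOV21G controls (5.86 log2), PLCB4 436 ± 32.5 and 1915 ± 132 (2.13 log2), and PLCB1 went the other way at 766 ± 67.5 and 25.6 ± 6.40 (-4.88 log2), while PLCB3 differed less, at 2551 ± 52.6 and 4784 ± 78.7 (0.91 log2). GNAQ, the alpha subunit that couples receptors to these enzymes, was 2006 ± 33.3 in CAOV3 and 7068 ± 251 in TOV21G (1.82 log2). PLCB2, PLCB4, PLCB1 and GNAQ had limma adjusted p-values of at most 3e-11.

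Genes known from other cells to be induced by LPA changed in part with ascites in CAOV3. Of 15, all tested, limma called 4 as higher and 1 as lower with ascites in CAOV3, with 10 at an unadjusted p under 0.05, where 0.636% of all tested genes were called higher, 1.1% lower and 12.9% had such a p. In TOV21G 0 were called, with 6 at an unadjusted p under 0.05 against 9.17% of all. The median difference of the list was 0.28 log2 in CAOV3 and 0.18 in TOV21G, against 0.00 and -0.02 over all tested genes. These genes answer to many other signals too, and the part of LPA in the values was not tested. As the list was chosen with earlier results of these data known, its shares beside those of all genes are descriptions only.

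PLAU, the urokinase protease, held 601.5, 588.4 and 552.2 in the CAOV3 controls and 747.2, 799.6 and 792.9 with ascites, with no overlap. It rose by 0.43 log2 (SE 0.055, limma adjusted p = 0.00128), a call kept in all 24 alternatives. AREG, an EGF receptor ligand, held 468.7, 373.2 and 393.9 in controls and 612.6, 588.9 and 576.0 with ascites, again without overlap. It rose by 0.53 log2 (SE 0.086, adjusted p = 0.00573), kept in 23 of 24 alternatives and lost with CAOV3 fitted alone (adjusted p = 0.0613). VEGFA, the angiogenic factor, held 991.9, 948.7 and 1024 in controls and 1129, 1109 and 1141 with ascites and rose by 0.19 log2 (SE 0.038, adjusted p = 0.0252). Its call was lost without TOV21G control replicate 3 (adjusted p = 0.0512), CAOV3 control replicate 1 (0.0755) or 2 (0.0972), or any of CAOV3 ascites replicates 1, 2 and 3 (0.0884, 0.064 and 0.0995), and with CAOV3 fitted alone (0.0626).

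CXCL2, a neutrophil-attracting chemokine, was low in CAOV3, with 7.94, 4.30 and 9.90 in controls and 19.7, 15.3 and 14.3 with ascites. The groups did not overlap, and it rose by 1.11 log2 (SE 0.22, limma adjusted p = 0.0205). The call was lost with edgeR (adjusted p = 0.0571), with DESeq2 (0.0723), with CAOV3 fitted alone (0.139) and without CAOV3 ascites replicate 1 (0.0881) or 2 (0.0565). CCN2, a matrix protein that LPA is known to induce, went against the list's name: it held 4213, 4458 and 4164 in controls and 3447, 3395 and 3540 with ascites. It fell by 0.31 log2 (SE 0.069, adjusted p = 0.0424), a call kept in 3 of 12 fits with a single library omitted, those without TOV21G control replicate 1 or 2 or TOV21G ascites replicate 2, with adjusted p up to 0.154 in the others.

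**Figure D5:**
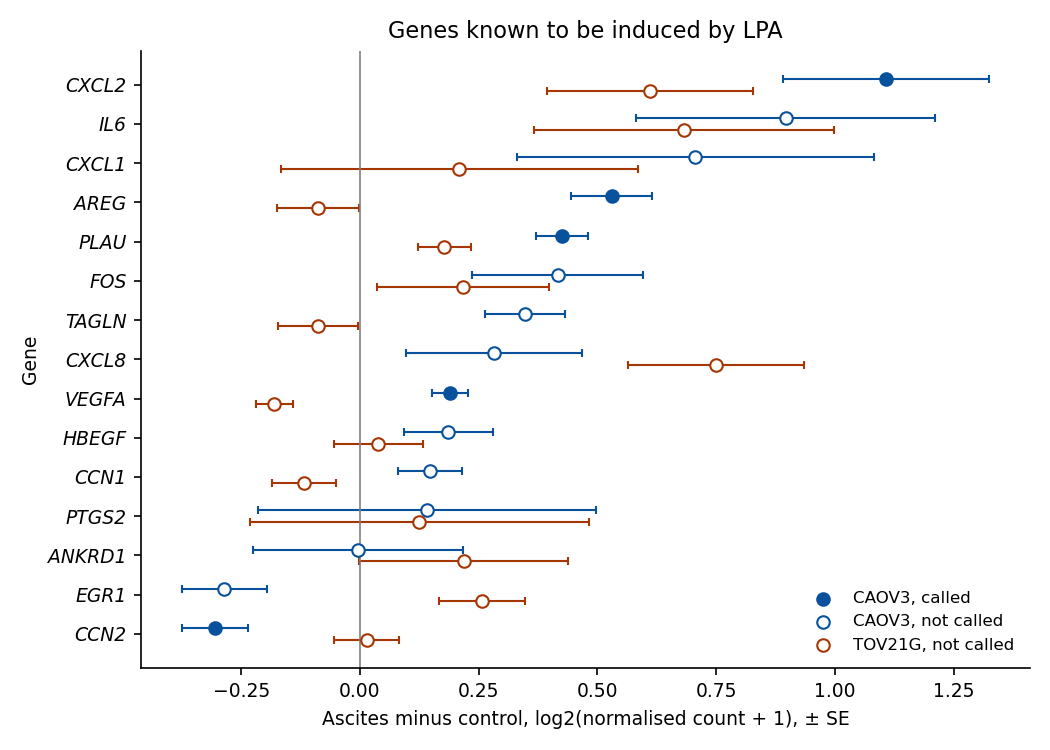
Ascites minus control (log2(normalised count + 1), bars ± SE from limma) for 15 genes known to be induced by LPA, in CAOV3 (blue) and TOV21G (brown); filled points passed the adjusted threshold. The 5 filled points are all in CAOV3, 4 above 0 and CCN2 below.

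The response to ascites differed between the lines, by the interaction term in limma, for 2 of these 15 genes, against 0.545% of all tested genes. Both responses were lower in TOV21G. At an unadjusted p under 0.05 there were 7 of the 15, against 11.9% of all, and these 7 went in both directions. VEGFA was 6014, 5943 and 5963 in TOV21G controls and 5111, 5466 and 5242 with ascites, and its response differed by -0.37 log2 (adjusted p = 0.0093). The AREG response differed by -0.62 log2 (adjusted p = 0.0421), with 855.2, 754.8 and 812.9 in TOV21G controls and 733.0, 835.4 and 712.3 with ascites. The AREG call was kept in 3 of the 12 fits without 1 library, those without CAOV3 control replicate 1, TOV21G control replicate 2 or TOV21G ascites replicate 2, with adjusted p up to 0.133 in the others, and the VEGFA call was kept in all 12. The AREG difference in response also missed the threshold with a pseudocount of 0.5 (adjusted p = 0.051) and with the MALAT1 covariate (0.0516).

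Between the untreated lines all 15 were called, 9 higher and 6 lower in TOV21G, where 82.2% of all tested genes were called. CXCL1, a chemokine, was 0.378 ± 0.655 in untreated CAOV3 and 6975 ± 405 in untreated TOV21G, and the cytokine IL6 was 0 in all CAOV3 controls and 524 ± 41.9 in TOV21G. PTGS2, the inducible cyclooxygenase, was 1130 ± 69.6 in CAOV3 and 0.349 ± 0.605 in TOV21G, and ANKRD1, a YAP target, 4136 ± 35.8 and 10.9 ± 2.54. Fold changes for genes at or near 0 in a line depend on the pseudocount and are left out.

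The related lipid sphingosine 1-phosphate shares the phosphatases PLPP1 to PLPP3 with LPA. Of 12 listed receptors and enzymes for it 9 were tested. Ascites called 0 in CAOV3 and 1 in TOV21G, against 1.73% and 0.409% of all tested genes. SGPP2, a phosphatase of sphingosine 1-phosphate, held 4.34, 2.10 and 3.59 in TOV21G controls and 11.6, 8.85 and 10.7 with ascites, with no overlap but few reads. It rose by 1.42 log2 (SE 0.18, limma adjusted p = 0.00384), lost with edgeR (0.0589), with DESeq2 (0.0992) and with TOV21G fitted alone (0.355). In CAOV3 it was far higher, at 1064 ± 40.8 in controls and 899 ± 23.9 with ascites, and the responses differed by 1.66 log2 (adjusted p = 0.0115). The receptor gene S1PR3 was 0 in all CAOV3 controls and 186 ± 10.8 in TOV21G, the exporter SPNS2 108 ± 14.0 and 4795 ± 308 (5.47 log2), and the kinase SPHK1 169 ± 14.3 and 2740 ± 160 (4.02 log2), and over the list 5 genes were higher and 3 lower in untreated TOV21G.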

How the data were processed

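RNA of the lines CAOV3 and TOV21G was sequenced in 12 libraries, 3 per group. The submitters' processing notes name Trim Galore, cutadapt, STAR, HTSeq and DESeq, without versions; the genome build, annotation and strand setting were not given in the sources used here. For 19251 genes the authors deposited a normalised read count per library, a signal of 0 or more. All values were whole multiples of 1 step per library, within 0.01 reads, and the steps matched median-of-ratios size factors, so whole reads were recovered (26697609 to 34491304 per library). The gene with the fewest reads had 10 in its highest library.

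Because the values were normalised and not raw, the test was limma 3.58.1 in R 4.3.3 (lmFit, eBayes with trend) on log2(value + 1), for 17616 genes with a value of at least 10 in at least 3 libraries, with 4 group means and no covariate. Two-sided p-values were adjusted by Benjamini-Hochberg within each contrast. The script was tested on simulated data. edgeR 4.0.16 and DESeq2 1.42.0 on the recovered reads were alternatives, with other pseudocounts (0.5, 5), filters, scalings, library weights, a replicate block and the omission of each library. Replicate pairs differed by more than sampling noise (chi-square per degree of freedom 1.81 to 22.6), so all 12 libraries were counted. Gene names came from a name table for 19087 identifiers and from GENCODE release 29 for 136.

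Some genes of the marker and pathway lists are not reported here. The members and the other lists were chosen with earlier results of these data known. All members were named; of the other lists, every gene called in an ascites comparison and at most 4 with the largest difference between untreated lines (mean of at least 50 in the higher line) were named, and for each member the 2 genes of highest Pearson r.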

Additional observations from a re-analysis of the deposited data

Results flagged for a closer look

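The test of the difference itself, the interaction term of limma, called 96 of 17616 tested genes (0.545%), and 3 of them were in the lists used here. For VEGFA the response in TOV21G minus that in CAOV3 was -0.37 log2, and for AREG -0.62, and both belong to the list of genes known to be induced by LPA. For SGPP2 it was 1.66 log2, with at most 11.6 normalised counts in any TOV21G library. None of these is an LPA receptor or a lipid phosphate phosphatase of the listed members, and among those LPAR1 had the lowest unadjusted p for a difference in response (0.00686, adjusted p = 0.248).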

How the results depend on the processing

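The members called stayed at 0 for ascites in CAOV3 in every alternative tried. In TOV21G and for the interaction, library weights raised the 0 to 1 (LPAR1) and no other setting did. Between untreated lines the count was 6 of 7 in every alternative but the filter at 50, which left LPAR5 untested and called 5 of 6. Between ascites libraries that filter called 6 of 6, and the other alternatives 6 or 7 of 7, as LPAR2 lost its call in 9 of them. Small differences that were never called changed sign. With ascites in TOV21G, LPAR2 became 0.0235 log2 with TMM and 0.0246 with upper-quartile scaling, 0.0253 with edgeR, 0.00196 with DESeq2 and 0.0514 with the MALAT1 covariate. LPAR5 there became 0.055 with library weights and 0.036 with the covariate, PLPP1 0.0458 with the covariate, and PLPP2 -0.025 with library weights. The difference between responses for PLPP1 became 0.0227 with library weights and 0.0752 with the covariate. Leaving out each library gave ranges of -0.109 to 0.00963 for PLPP1 in CAOV3. In TOV21G these ran from -0.0596 to 0.0355 for LPAR2, -0.286 to 0.172 for LPAR5, -0.0469 to 0.0509 for PLPP2 and -0.0207 to 0.185 for PLPP3. For the difference between responses they were -0.156 to 0.302 for LPAR5 and -0.133 to 0.035 for PLPP1. The cause was not tested. Calls over all genes moved more: in CAOV3 from 305 to 116 with the replicate block, 511 with edgeR, 507 with DESeq2, 799 with weights and 931 with the covariate, and from 172 to 344 without 1 library. In TOV21G they moved from 72 to 13 with the block, 8 with the line fitted alone, 114 with edgeR, 150 with DESeq2 and 3390 with weights, and from 24 to 136 without 1 library. In TOV21G 25 were higher and 47 lower, and with edgeR 51 and 63. For the difference between responses they moved from 96 to 9, 148, 154 (upper quartile), 163, 212 and 1794 with the block, edgeR, upper-quartile scaling, the covariate, DESeq2 and weights, and from 40 to 146 without 1 library.

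Replicate numbers showed no clear pairing of control with ascites libraries. For the same number, deviations from the group means correlated at -0.0196, 0.019 and 0.0155 in CAOV3. In TOV21G they did so at -0.113, -0.332 and 0.0193, and for unlike numbers at -0.282 to 0.352. With 3 libraries per group these values cannot exclude a pairing. With the replicate block the members called were 0 for ascites in both lines, 0 for the difference between responses, 6 between untreated lines and 6 between ascites libraries (LPAR2 adjusted p = 0.0501). The block also ended the CAOV3 calls of VEGFA (0.147), CCN2 (0.134) and CXCL2 (0.0732), that of PLPPR2 in TOV21G (0.217), and the differences in response of VEGFA (0.119) and AREG (0.211).

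With 3 libraries per group and low counts of LPAR5 in both lines and of PLPP3 and LPAR6 in TOV21G, changes within the printed intervals were not excluded. Intervals and floors from reads cover counting error only, since the reads of a group were added up and the spread between its libraries was left out. No molecular identifiers were described. Levels per kilobase depend on the transcript length assumed, most for PLPP2.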
